A study of Mus musculus with 24 samples.

Results

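The polyamine genes described here are Odc1, Amd1, Srm, Sms, Azin1, Oaz1, Oaz2 and Sat1, the rows of the deposited count table that carry these 8 symbols among 24079 genes. They were followed in RNA carrying several ribosomes, taken from the heavy fractions of sucrose gradients (Heavy), and in RNA of the whole lysates loaded on them (Total), of the mouse nucleus accumbens (labels Nac, here Acb) and dorsal striatum (labels DStr, here DS). Wild-type mice (wt) were compared with littermates carrying an rpS6 knockin (KI, rpS6 P-/-), in which the phosphorylatable serines of ribosomal protein S6 are replaced by alanine in every cell, on a mixed background. Each of the 8 combinations of region, genotype and kind of RNA had 3 libraries, each made from pooled mice, and the sources differ on how many mice a pool held. Males and females were used in the study, and the sexes in each pool are not given in the sources used here. The age of these mice is not given in the sources used here.

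Polyamines (putrescine, spermidine and spermine) are small cations that bind RNA, gate ion channels in neurons and are needed for translation itself, because spermidine supplies the hypusine of eIF5A. Cells hold their level within narrow limits largely after transcription: polyamines repress the translation of several mRNAs of their own synthesis, while they promote a ribosomal frameshift that is required to make antizyme, the protein that binds ornithine decarboxylase and sends it to the proteasome. These mRNAs are therefore often used as examples of translational control.

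The antizyme mRNAs carry an in-frame stop codon that ribosomes pass only by shifting into the next frame. The site is shown because it sets these members apart from the enzymes of the set. Below, the capitals mark the last codon before the stop and the stop itself, read from GENCODE M21 transcripts of GRCm38.p6, and the sites of Oaz1 and Oaz2 are identical at 28 of 30 bases. In Oaz1 the codon and stop are codons 68 and 69, in Oaz2 codons 32 and 33. The start of the Amd1 coding region is shown for another reason, that its 50 bases (start codon in capitals) occur unchanged in transcripts of 3 other genes, among them Amd2.
Oaz1: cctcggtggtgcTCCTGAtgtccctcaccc
Oaz2: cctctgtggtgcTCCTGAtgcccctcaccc
Amd1: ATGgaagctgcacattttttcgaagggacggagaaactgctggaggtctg

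Such copies matter here because the counting left out reads that align to several places. A window of 50 bases, the length of a read, was slid along each member's transcript and compared with transcripts of all other genes. In Amd1, which encodes S-adenosylmethionine decarboxylase (chr10:40287458-40302188, minus strand), 87.6% of windows had an exact copy elsewhere and 97.9% a copy within 2 mismatches. Amd1 was listed at 0 in all 24 libraries, and so was Amd2. A count of 0 allows up to 3 reads, or 0.0864 to 0.323 CPM (reads scaled to the same total of assigned reads in each library) across the libraries. This limit covers counting error only, and only reads that can be assigned to the gene. No level or fold is given for Amd1.

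The other 7 members had reads in all 24 libraries. Oaz1 (chr10:80826656-80829290) was counted at 9 to 193 reads per library, although 404 of its 995 windows had no copy within 2 mismatches. Its processed pseudogene Oaz1-ps held copies of the other 591. Odc1 had copies within 2 mismatches for 62.3% of windows, Sat1 for 33.3%, Srm for 31.1%, Sms for 28.7%, Oaz2 for 24.6% and Azin1 for 6.5%. The windows of Azin1 matched only an overlapping antisense gene, since both strands were searched, and need not be a second place in the genome. Odc1, Sat1, Srm, Sms, Oaz2 and Azin1 still had 243 to 10934 reads per library. Levels of Odc1 and above all of Oaz1 are therefore uncertain, and how far copies lowered each count was not tested.

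**Figure D1:**
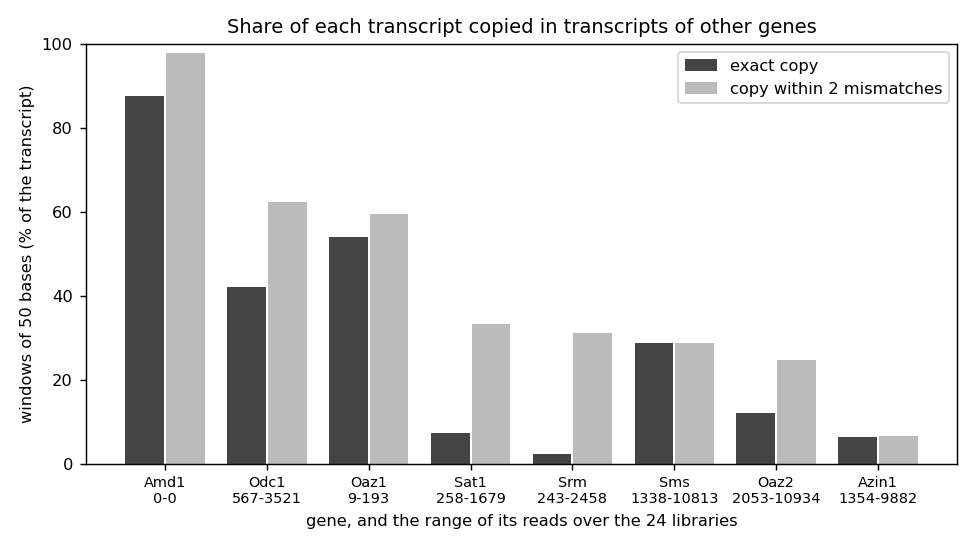
Share of the 50-base windows of each member's transcript (vertical axis, %) that had an exact copy (dark bars) or a copy within 2 mismatches (light bars) in transcripts of other genes, with the range of the member's reads over the 24 libraries under its name. Amd1, with 97.9% of windows copied, had 0 reads in every library, and Azin1, with 6.5%, all matching an overlapping antisense gene, had 1354 to 9882.

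Libraries held 9280589 to 34703044 assigned reads. The study reported contamination by E. coli sequences and made several sequencing runs for that reason. Any effect of the contamination or the runs was not tested. A single noncoding RNA, Bc1, accounted for 15.2 to 26.1% of reads in Total and 0.897 to 3.85% in Heavy libraries, and values are given as CPM after scaling by the trimmed mean of M values (TMM), which limits the weight of such genes. Rps6, the gene that carries the mutations, lay at 269.8 to 488 CPM in whole lysates and 317 to 399 CPM in heavy polysomal fractions, over both genotypes and regions together. Its level does not check the point mutations. All 10 markers of medium spiny neurons, the main cell of the striatum, were detected in every group, at 4224 to 7431 CPM in sum. The summed level of 5 cortical excitatory neuron markers was 64.4 to 208 CPM in libraries of the Acb and 738 to 1002 CPM in libraries of the DS.

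Per kilobase of transcript, Oaz2 had the highest level of the set in whole lysates of wild-type mice, 132 ± 10.1 CPM per kb in the Acb and 124 ± 8.81 in the DS (mean ± SD, n = 3). In the Acb it was followed by Sms at 39.9 ± 4.25, Azin1 at 36.9 ± 4.43, Sat1 at 31.9 ± 2.40, Odc1 at 31.5 ± 6.64 and Srm at 24.7 ± 3.01 CPM per kb, each overlapping with its neighbour in this order. Oaz1 stood apart at 3.37 ± 1.34 CPM per kb. In the DS the order of the same quantity was Azin1, Sms, Srm, Sat1 and Odc1, of which Azin1 at 42.8 ± 1.10 lay above every library of Sms at 39.2 ± 1.84 while the remaining neighbours overlapped. The levels of Sat1 were alike in the whole lysates of all 4 groups, between 28.8 and 40.1 CPM.

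The first question was which of these mRNAs were more abundant on heavy polysomes than in the lysate they came from. In wild-type mice Srm, Sms and Azin1 were enriched in heavy polysomal fractions of both regions, and Odc1 and Oaz2 passed the test in the DS, while Sat1 and Oaz1 did not pass in either region. Adjusted p-values are those of edgeR's quasi-likelihood test after Benjamini-Hochberg adjustment over all genes tested, and fold changes come from the fit of the 12 libraries of a region.

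Srm encodes spermidine synthase (chr4:148591513-148594619). Its level in whole lysates of the Acb of wild-type mice was 32.7, 37.3 and 29.2 CPM, against 64.4, 65.5 and 65.6 CPM in heavy polysomal fractions. In the DS it was 44.8, 30.4 and 61.8 CPM against 105, 80.1 and 82.8 CPM. Every heavy polysomal library lay above every whole lysate in both regions. The log2 fold change was 0.93 (SE 0.17, 1.90-fold, adjusted p = 8.40e-05) in the Acb and 0.97 (SE 0.19, 1.96-fold, adjusted p = 7.00e-05) in the DS.

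In KI mice Srm was at 37.8, 42.4 and 41.4 CPM in whole lysates of the Acb and at 55.8, 54.0 and 52.5 CPM in heavy polysomal fractions. In the DS these values were 37.2, 58.2 and 45.1 CPM and 57.2, 67.1 and 70.3 CPM, so that the groups were apart in the Acb and overlapped in the DS. The log2 fold change was 0.41 (SE 0.17, adjusted p = 0.0949) in the Acb and 0.47 (SE 0.19, adjusted p = 0.0584) in the DS. The latter passed with upper quartile factors (adjusted p = 0.0433), library totals (0.68, adjusted p = 0.00395) and no filter (adjusted p = 0.0287). It also passed with Heavy and Total libraries of the same number paired (0.49, adjusted p = 0.0245). Without the KI Total replicate 2 (0.66, adjusted p = 0.0222) or the KI Heavy replicate 1 (0.55, adjusted p = 0.0385) it passed as well. It was -0.02 (adjusted p = 0.976) when each library's trend on transcript length was removed.

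Sms encodes spermine synthase and lies on the X chromosome (chrX:157443851-157492287, minus strand). Its whole lysates held 153, 131 and 161 CPM in the Acb of wild-type mice and its heavy polysomal fractions 284, 228 and 289 CPM. The values in the DS were 147, 152 and 138 CPM against 277, 218 and 235 CPM, again with no overlap. The enrichment was 0.80 on the log2 scale (SE 0.16, 1.74-fold, adjusted p = 0.000148) in the Acb and 0.74 (SE 0.14, 1.67-fold, adjusted p = 5.36e-05) in the DS. In KI mice it was 0.39 (SE 0.15, adjusted p = 0.0708) in the Acb, where 175 CPM in a heavy polysomal library fell within the whole lysates at 151 to 176 CPM, and 0.53 (SE 0.14, adjusted p = 0.0032) in the DS. Without that library, KI Heavy replicate 3, the enrichment in the Acb was 0.50 (adjusted p = 0.0174). For Srm and Sms the wild-type calls in both regions held under all 15 alternatives of the processing.

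Odc1 encodes ornithine decarboxylase, which makes putrescine (chr12:17544808-17551502). Its heavy polysomal fractions in the Acb held 92.3, 91.8 and 92.7 CPM in wild-type mice and 92.9, 91.0 and 90.9 CPM in KI mice, above whole lysates at 62.0, 60.2 and 86.4 CPM and at 70.7, 67.8 and 70.1 CPM. Although groups did not overlap in either genotype, the log2 fold changes of 0.36 (SE 0.16, adjusted p = 0.102) and 0.39 (SE 0.16, adjusted p = 0.0869) did not pass. Leaving out the wild-type Total replicate 3 of the Acb, at 86.4 CPM, gave 0.54 (adjusted p = 0.0195).

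In the DS, Odc1 was at 65.3, 55.1 and 47.8 CPM in whole lysates of wild-type mice and at 101, 73.6 and 72.9 CPM in heavy polysomal fractions. The corresponding values in KI mice were 54.7, 40.3 and 53.3 CPM and 66.0, 76.0 and 89 CPM. The enrichment passed in both genotypes, with 0.55 (SE 0.17, adjusted p = 0.0126) in wild-type and 0.64 (SE 0.17, adjusted p = 0.00351) in KI mice. It did not pass in wild-type mice without Total replicate 3 (0.45, adjusted p = 0.0931) or Heavy replicate 1 (0.37, adjusted p = 0.165), nor in KI mice without Total replicate 2 (0.51, adjusted p = 0.0546), and with the length trend removed it fell short in both (0.43, adjusted p = 0.0645, and 0.44, adjusted p = 0.0637).

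**Figure D2:**
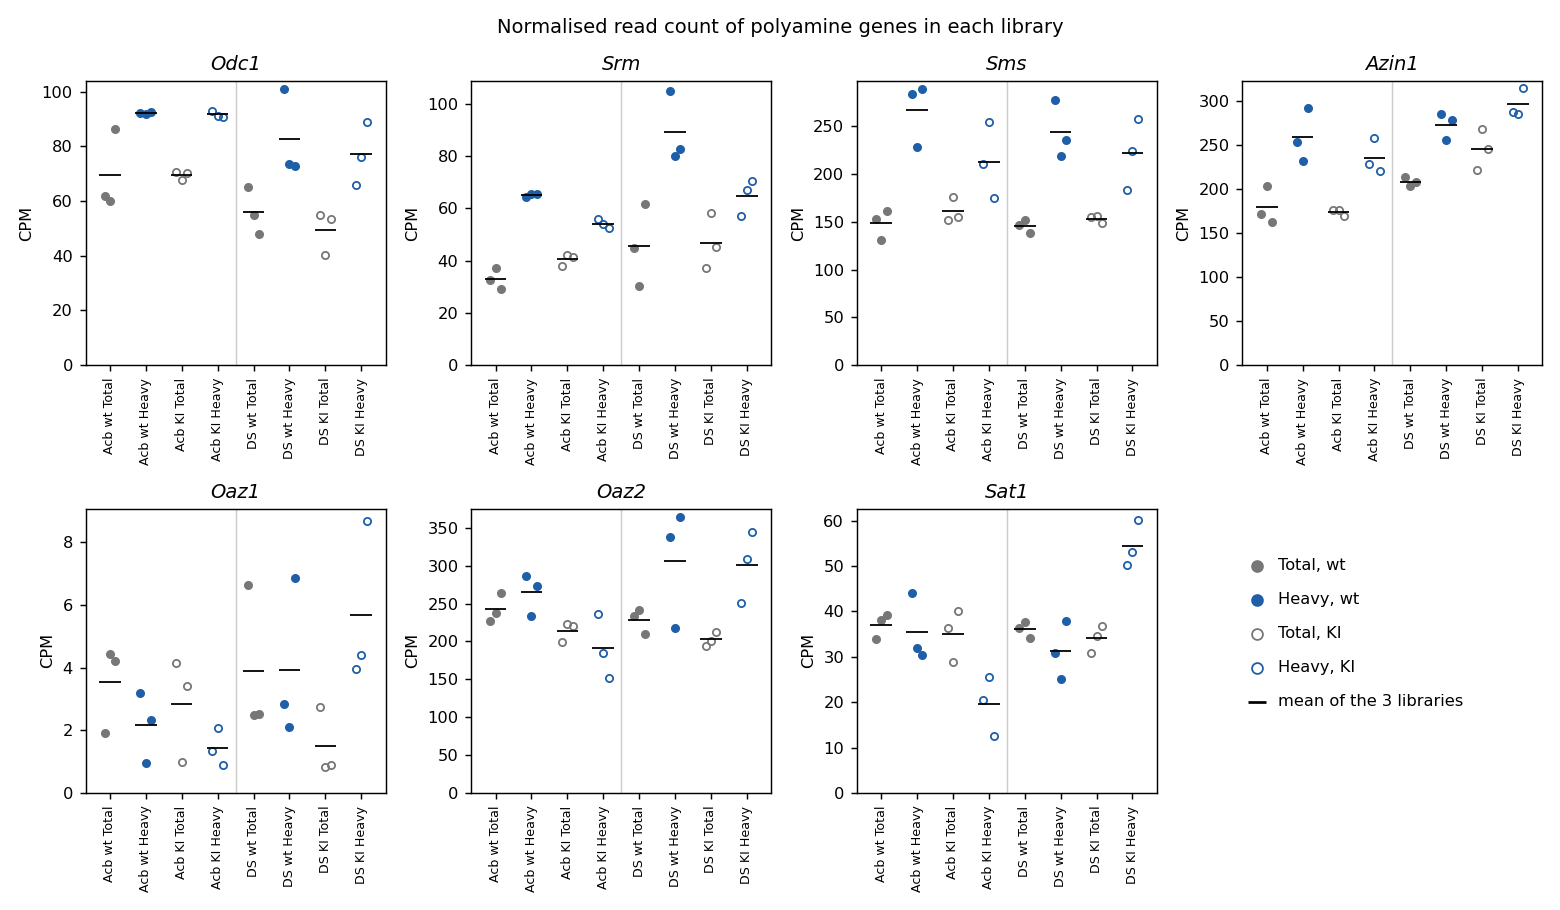
Level in CPM (vertical axes, linear from 0) of the 7 members with reads in each library, by region, genotype and kind of RNA (grey, Total; blue, Heavy; filled, wt; open, KI), with a bar at the mean of 3 libraries. Srm and Sms are higher in blue than in grey in wt of both regions, and Sat1 is lowest in Heavy of the Acb of KI mice (12.6 to 25.5 CPM) and highest in Heavy of the DS of KI mice (50.3 to 60.3 CPM).

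Azin1, antizyme inhibitor, resembles ornithine decarboxylase without its activity and binds antizyme in its place (chr15:38487430-38519294, minus strand). Its level in the Acb was 172, 204 and 163 CPM in whole lysates and 254, 232 and 292 CPM in heavy polysomal fractions of wild-type mice. In the DS it was 214, 203 and 208 CPM against 286, 256 and 279 CPM. Heavy polysomal libraries lay above whole lysates in all 4 combinations of region and genotype, a pattern that 6.0% of all genes shared. Azin1 was the single member to show it beside Odc1.

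The log2 fold change of Azin1 was 0.48 (SE 0.15, adjusted p = 0.0132) in the Acb of wild-type mice, 0.42 (SE 0.15, adjusted p = 0.0354) in that of KI mice, 0.39 (SE 0.13, adjusted p = 0.0239) in the DS of wild-type mice and 0.27 (SE 0.13, adjusted p = 0.138) in that of KI mice, where it passed with library totals (0.48, adjusted p = 0.00548) or the length trend removed (0.54, adjusted p = 0.00446). These calls depended on single libraries. In the Acb of wild-type mice they were lost without Total replicate 1, Total replicate 3 or Heavy replicate 3 (adjusted p = 0.066 to 0.106, log2 fold change at least 0.39). In the Acb of KI mice the same held without any 1 of the 3 whole lysates or without Heavy replicate 2 (adjusted p = 0.0741 to 0.161) and with DESeq2's size factors (adjusted p = 0.06), and in the DS of wild-type mice without any 1 of the 3 whole lysates or without Heavy replicate 1 or 3 (adjusted p = 0.0516 to 0.0974). The direction was upward in each of these fits.

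The antizymes behaved less evenly. Oaz2 (chr9:65676548-65690300) was at 227, 237 and 263 CPM in whole lysates of the Acb of wild-type mice and at 287, 234 and 273 CPM in heavy polysomal fractions, with overlap and a log2 fold change of 0.08 (SE 0.15, adjusted p = 0.791). In KI mice the Acb held 199, 222 and 220.1 CPM against 236, 184 and 152 CPM, a log2 fold change of -0.18 (SE 0.15, adjusted p = 0.466), which passed as a decrease with the length trend removed (-0.48, adjusted p = 0.0195).

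In the DS, Oaz2 was at 233, 241 and 210.2 CPM against 337, 218 and 365 CPM in wild-type mice. In KI mice it was at 195, 201 and 213 CPM against 250.1, 308 and 344 CPM, with every heavy polysomal library higher. The log2 fold changes of 0.43 (SE 0.15, adjusted p = 0.0293) and 0.57 (SE 0.15, adjusted p = 0.00279) passed. With the length trend removed neither did (0.19, adjusted p = 0.418, and 0.26, adjusted p = 0.259), and the wild-type call was also lost without Total replicate 1 or 3 or Heavy replicate 1 or 3 (adjusted p = 0.0636 to 0.231). The groups of wild-type mice overlapped through Heavy replicate 2, at 218 CPM.

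Oaz1 was close to its counting limit. Its whole lysates in the DS of KI mice held 2.75, 0.810 and 0.901 CPM (46, 12 and 15 reads) and its heavy polysomal fractions 3.94, 4.39 and 8.68 CPM (65, 126 and 193 reads), a log2 fold change of 1.92 (SE 0.62, adjusted p = 0.0149). The call was lost without KI Total replicate 2 (1.63, adjusted p = 0.0799), Total replicate 3 (1.66, adjusted p = 0.0777) or Heavy replicate 3 (1.48, adjusted p = 0.14) of the DS, and with the length trend removed (1.33, adjusted p = 0.114). In the other 3 combinations groups overlapped and values ran from -1.0 to 0.03 (adjusted p = 0.346 to 0.994).

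Sat1 encodes spermidine/spermine acetyltransferase, which starts polyamine breakdown and export (chrX:155213126-155216449, minus strand). In wild-type mice it was neither enriched nor depleted beyond the spread. In the Acb the values were 34.0, 38.2 and 39.2 CPM in whole lysates and 44, 32 and 30.3 CPM in heavy polysomal fractions, a log2 fold change of -0.11 (SE 0.22, adjusted p = 0.787, 95% interval -0.54 to 0.32). In the DS they were 36.4, 37.6 and 34.2 CPM and 30.8, 25.0 and 37.8 CPM, a log2 fold change of -0.20 (SE 0.19, adjusted p = 0.491, 95% interval -0.58 to 0.17), which passed as a decrease with the length trend removed (-0.62, adjusted p = 0.0117).

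In KI mice Sat1 moved in opposite directions in the 2 regions. In the Acb it was at 36.4, 28.8 and 40.1 CPM in whole lysates and fell to 20.5, 25.5 and 12.6 CPM in heavy polysomal fractions. In the DS it was at 31.0, 34.6 and 36.9 CPM in whole lysates and rose to 50.3, 53.0 and 60.3 CPM. Groups did not overlap in either region. The log2 fold change was -0.86 (SE 0.22, 1.81-fold lower, adjusted p = 0.00478) in the Acb and 0.68 (SE 0.19, 1.60-fold higher, adjusted p = 0.00471) in the DS. Each call held in 14 of 15 alternatives. In the DS it was lost with the length trend removed (0.15, adjusted p = 0.688) and in the Acb with library totals as the scale (-0.56, adjusted p = 0.0572), which moves all genes upward in this comparison by 0.28 on the log2 scale.

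**Figure D3:**
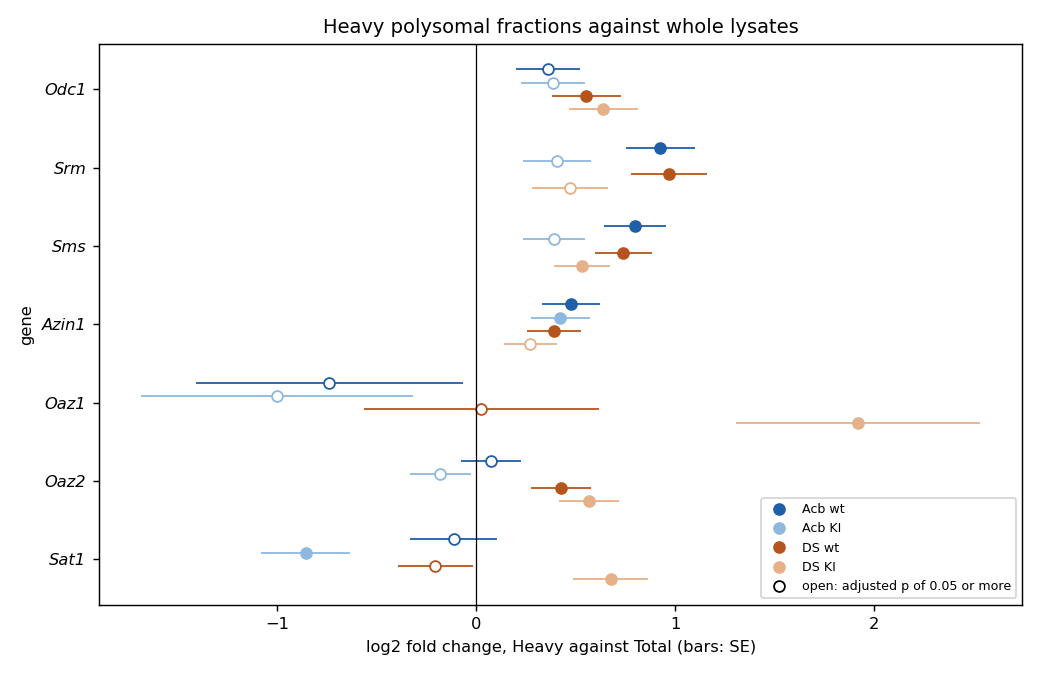
Log2 fold change of Heavy against Total (horizontal axis, bars SE) for the 7 members tested in Acb and DS of wt and KI mice, with filled points where the adjusted p was under 0.05. Srm, Sms and Azin1 are filled in wt of both regions, and the points of Sat1 in KI mice lie at -0.86 in the Acb and 0.68 in the DS.

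Counted together, 3 of 7 members were called in the Acb of wild-type mice, all upward, where 11.5% of all 16687 genes tested were called upward, 11.6% downward and 23.1% in either direction. The numbers in KI mice of the Acb were 1 upward (Azin1, background 9.5%) and 1 downward (Sat1, background 9.74%), with 19.2% of all genes called in either direction. In the DS 5 were called upward in wild-type mice (background 12.8%) and 5 in KI mice (background 13.4%), and none downward, where 24.8% and 25.5% of all genes were called in either direction. Groups were apart with Heavy higher for 4 members in wild-type mice of each region, against 22.1% of all genes in the Acb and 17.9% in the DS, and for 3 and 6 members in KI mice, against 18.6% and 20.4%. Groups were apart with Heavy lower for Sat1 alone, in KI mice of the Acb (background 14.0%), and for no member in wild-type mice of the Acb (15.6%), wild-type mice of the DS (17.6%) or KI mice of the DS (18.2%). An unadjusted p under 0.05 was reached by 4, 5, 5 and 7 members, against 32.7%, 30.1%, 34.2% and 34.4% of all genes, in the Acb of wild-type and KI mice and the DS of wild-type and KI mice. The members called in wild-type mice of both regions were Srm, Sms and Azin1, where 9.13% of all genes were called upward in both. The median log2 fold change of the 7 was 0.36, 0.39, 0.43 and 0.57 in the Acb of wild-type and KI mice and the DS of wild-type and KI mice, against 0.04, 0.04, 0 and 0.06 over all genes. Scaling to library totals moved all genes upward by 0.19 to 0.28 in these comparisons, and the changes above are relative to the TMM scale. With library totals Odc1, Srm and Sms passed in KI mice of the Acb (0.68 to 0.69) and Odc1 in wild-type mice (0.62).

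The second question was whether the knockin changed the amount of these mRNAs or their share on heavy polysomes. Of the members, Sat1 had the smallest p-value between genotypes in Heavy of both regions, with lower levels in KI mice in the Acb and higher levels in the DS, while its whole lysates showed no difference beyond the spread. Sat1 is among the genes that the study itself called with DESeq2 between genotypes in heavy polysomal fractions of the DS. Its values here are therefore no independent evidence of a direction.

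Set side by side, Heavy libraries of the Acb held 44, 32 and 30.3 CPM of Sat1 in wild-type and 20.5, 25.5 and 12.6 CPM in KI mice, a log2 fold change of -0.82 (SE 0.23, unadjusted p = 0.00273, adjusted p = 0.107). Those of the DS held 30.8, 25.0 and 37.8 CPM and 50.3, 53.0 and 60.3 CPM, a log2 fold change of 0.81 (SE 0.21, unadjusted p = 0.000305, adjusted p = 0.229). In both regions the genotypes were apart but the difference did not pass after adjustment. For the Acb it passed with DESeq2 (adjusted p = 0.0222), without a filter beyond 1 read (adjusted p = 0.0331) and with all 24 libraries in one fit (adjusted p = 0.011), out of 15 alternatives with adjusted p between 0.011 and 0.406. For the DS it passed only without a filter (adjusted p = 0.0443).

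In whole lysates the log2 fold change of Sat1 between genotypes was -0.08 (SE 0.20, 95% interval -0.48 to 0.32) in the Acb and -0.10 (SE 0.17, 95% interval -0.44 to 0.24) in the DS. The difference of the genotype effect in heavy polysomal fractions between the regions was -1.62 (SE 0.32, 95% interval -2.25 to -1.0, unadjusted p = 2.79e-05, adjusted p = 0.0518). Of 21 alternatives, all negative (-1.86 to -1.31), 12 had an adjusted p under 0.05 and the range was 3.22e-05 to 0.215. The lowest came from the replicate block, which paired Acb and DS libraries by number alone (residual correlations -0.242 to 0.198). Among the 12 were 5 fits without a library, which gave -1.86 to -1.69 (adjusted p = 0.0159 to 0.0468). The library left out was wild-type Heavy replicate 2 or 3 or KI Heavy replicate 1 or 2 in the Acb. In the DS it was wild-type Heavy replicate 3. The remaining fits without a library did not pass. Of all genes 0.00592% were called and 13.8% stood at an unadjusted p under 0.05 in this comparison. An exact permutation of the genotypes within each region (two-sided, 400 regroupings) gave p = 0.005 for Sat1, the smallest p these regroupings allow. That minimum follows from the separation of its genotypes in opposite directions and adds nothing to it. Of all genes tested in both regions, 0.906% were separated with KI lower in the Acb and higher in the DS. Genes separated the other way round were not counted. The regroupings assume no genotype effect in either region. For the other 6 members in heavy polysomal fractions this p lay between 0.06 and 0.685. In whole lysates it was 0.965 for Sat1.

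Within KI mice, the regional difference in the Heavy against Total ratio of Sat1 was -1.49 (SE 0.30, adjusted p = 0.000701), a comparison added after these values had been seen. It stayed under 0.05 in all 21 alternatives (adjusted p = 4.58e-05 to 0.00578), the removal of the length trend included (-1.21). Oaz2 was the other member called there, with -0.71 (SE 0.21, adjusted p = 0.0374). Its call was kept in 11 of 21 alternatives (adjusted p = 0.00511 to 0.131). It was lost with library totals as the scale (adjusted p = 0.0614) and in 9 fits without a library, of which those lacking Heavy replicate 3 of the Acb (-0.58, adjusted p = 0.0973) or of the DS (-0.60, adjusted p = 0.131) gave the smallest differences. Oaz1 had a difference of -2.88 (SE 0.96, adjusted p = 0.0613) on its few reads, and passed in 3 of 21 alternatives, without a filter (adjusted p = 0.0479) and without Total replicate 2 of the Acb (-3.29, adjusted p = 0.0238) or Total replicate 1 of the DS (-3.68, adjusted p = 0.0349). In this comparison 5.87% of all genes were called, 3.94% with the lower ratio in the Acb. In wild-type mice the same regional difference was 0.06 for Sat1 (SE 0.28, 95% interval -0.48 to 0.61) and -0.38 for Oaz2 (SE 0.22, unadjusted p = 0.0905), and no gene was called by edgeR (767 genes at an unadjusted p under 0.05, 4.6%; 1 gene called by DESeq2).

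The genotype effect on the Heavy against Total ratio, a measure of translational efficiency, was called for no member by edgeR (2 at an unadjusted p under 0.05 in each region) or DESeq2. For Sat1 it was -0.74 in the Acb (SE 0.31, unadjusted p = 0.0222, adjusted p = 0.344) and 0.88 in the DS (SE 0.27, unadjusted p = 0.00178, adjusted p = 0.899). For Srm it was -0.52 in the Acb (SE 0.24, unadjusted p = 0.0377, adjusted p = 0.392) and -0.50 in the DS (SE 0.27, unadjusted p = 0.069, adjusted p = 1.0), and for Oaz1 in the DS 1.89 (SE 0.85, unadjusted p = 0.0295, adjusted p = 1.0). Of all genes, 11.9% in the Acb and 4.9% in the DS had an unadjusted p under 0.05, and 0 were called. The study tested the genotype effect on this ratio with another program, Xtail, which was not used here. It reported many genes altered in the Acb and fewer in the DS, so 0 calls here do not show the absence of that effect. The difference of this effect between regions, also added after the data had been seen, was -1.66 for Sat1 (SE 0.41, adjusted p = 0.115). It passed with Heavy and Total libraries of the same number paired (-1.70, adjusted p = 0.00731) and without a filter beyond 1 read (adjusted p = 0.0219). Without the wild-type Heavy replicate 3 of the DS it passed too (adjusted p = 0.0415).

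**Figure D4:**
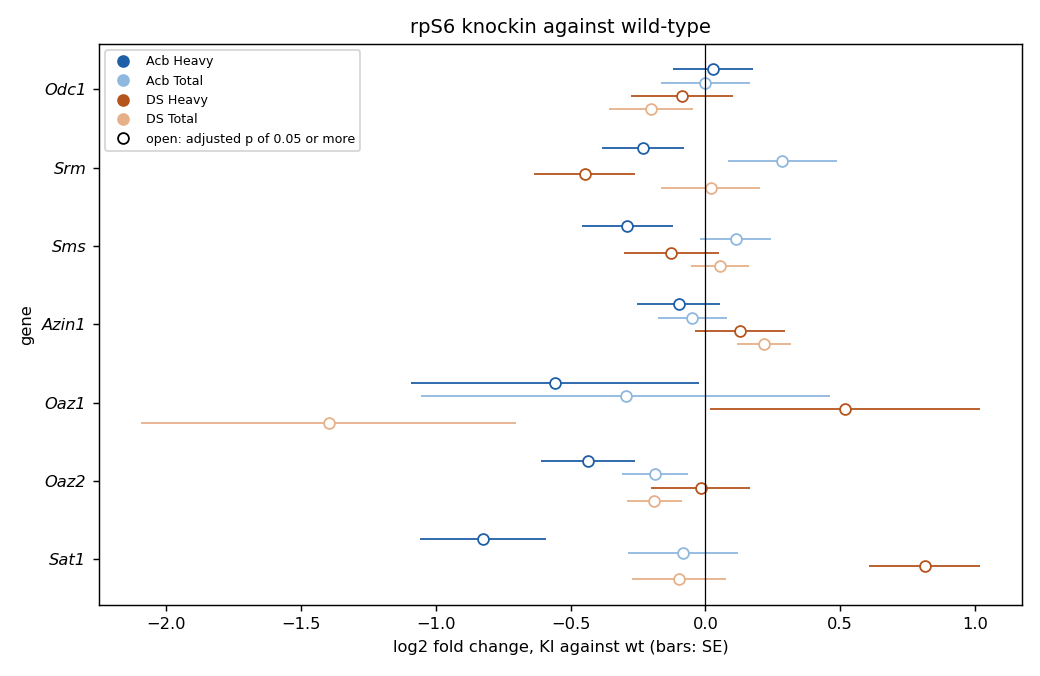
Log2 fold change of KI against wt (horizontal axis, bars SE) for the 7 members in heavy polysomal fractions and whole lysates of both regions. All points are open, since no adjusted p was under 0.05, and Sat1 lies at -0.82 in Heavy of the Acb and 0.81 in Heavy of the DS, with whole lysates near 0.

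None of the remaining members passed either. Odc1 had log2 fold changes of 0.03 (SE 0.15) in Heavy of the Acb and -0.09 (SE 0.19) in Heavy of the DS. Srm was lower in every KI than in every wild-type library of heavy polysomal fractions in both regions, by 0.23 (log2 fold change -0.23, SE 0.15, adjusted p = 0.395) and 0.45 (log2 fold change -0.45, SE 0.19, adjusted p = 0.749), where 13.7% and 5.39% of all genes showed such a separation. For Oaz2 it was -0.44 in Heavy of the Acb (SE 0.17, unadjusted p = 0.0229, adjusted p = 0.169) with overlapping groups, and Azin1 one of 0.22 in whole lysates of the DS (SE 0.10, unadjusted p = 0.0371, adjusted p = 0.517). In whole lysates of the Acb every KI library was above every wild-type library for Srm (0.29, SE 0.20, background 3.87%) and below for Oaz2 (-0.19, SE 0.12, background 4.5%). For Azin1 every KI library was above in Heavy (0.13, SE 0.17, background 5.71%) and Total (background 7.31%) of the DS. The lowest log2 fold change in whole lysates was that of Oaz1 in the DS, -1.40 (SE 0.70, adjusted p = 0.55), with overlapping groups. Members called numbered 0 of 7 in all 4 genotype comparisons by edgeR, with 2, 0, 2 and 1 at an unadjusted p under 0.05 in Heavy and Total of the Acb and Heavy and Total of the DS, where all genes had 21.7%, 2.96%, 6.42% and 9.07%. Of all genes edgeR called 0% in Heavy of the Acb, 0.0065% in Total of the Acb, all upward, 0.044% in Heavy of the DS, with 0.0315% upward, and 0.122% in Total of the DS. The study, with DESeq2, reported many genes in Heavy of the Acb and few in Heavy of the DS. As an alternative here, DESeq2 called Sat1 in Heavy of the Acb and no other member. In Heavy of the DS, where the study reported Sat1, it called no member.

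Cell markers and transcript length were set beside the Sat1 values. The summed level of 6 microglia markers in Heavy of the Acb was 233 to 327 CPM in wild-type and 234 to 251 CPM in KI mice, and in those of the DS 134 to 151 and 142 to 219 CPM. That of 4 choroid plexus markers was 47.3 to 68.5 CPM against 41.5 to 45.3 CPM in the Acb and 12.8 to 14.4 CPM against 15.9 to 18 CPM in the DS, so this sum moved the same way as Sat1 and was apart between genotypes. None of the 4 genes was called, 2 of them had too few reads to be tested in the DS and 1 was at 0 in the Heavy libraries there. Their part in the result was not tested. Of 6 oligodendrocyte markers, 4 had an unadjusted p under 0.05 between genotypes in Heavy of the Acb (median log2 fold change -0.21, none called), against 21.7% of all genes, and 0 had one in Heavy of the DS (median 0.09). Their summed level was 4247 to 5413 CPM in wild-type and 4349 to 4671 CPM in KI mice of the Acb, and 3397 to 3696 and 2916 to 4563 CPM in the DS, and their part in the result was not tested either. Of 10 medium spiny neuron markers, 3 and 0 had such a p in Heavy of the Acb and DS. The sums of medium spiny neuron, cortical neuron, astrocyte and endothelial markers overlapped between genotypes in Heavy of both regions. Sat1 and Sms are X-linked, and the summed level of 4 Y-linked genes, which follows the share of males in a pool, overlapped between genotypes in heavy polysomal fractions of the Acb (38.8 to 79.8 and 43.8 to 64.7 CPM) and of the DS (35.9 to 57.7 and 33.3 to 88.5 CPM). Xist, which is expressed from the inactive X of females, was at 0.0742 to 4.09 CPM in wild-type and 1.07 to 5.35 CPM in KI mice in Heavy of the Acb, and at 1.09 to 1.43 and 0 to 6.91 CPM in Heavy of the DS. In Total of the Acb it was 0 to 5.01 CPM in wild-type and 4.12 to 10.6 CPM in KI mice (log2 fold change 1.59, unadjusted p under 0.05, not called). The libraries thus differed in Xist within and between groups. Whether these levels follow the share of females in a pool was not tested, nor was the part of sex in the values of Sat1 and Sms. The Sat1 transcript is short, with 1162 bases at the 14.0th percentile of coding genes. With the length trend removed its genotype difference was -0.56 in the Acb (adjusted p = 0.168) and 0.73 in the DS (adjusted p = 0.155), and the difference between them -1.31 (adjusted p = 0.0429).

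Between the regions of wild-type mice no member was called. Srm was lower in the Acb than in the DS in heavy polysomal fractions (log2 fold change -0.44, SE 0.17, unadjusted p = 0.0154, adjusted p = 0.12), with every Acb library below every DS library, as for 11.5% of all genes. In whole lysates it differed by -0.43 (SE 0.20, unadjusted p = 0.0387, adjusted p = 0.183), which passed without the wild-type Total replicate 2 of the DS (-0.65, adjusted p = 0.037). Odc1 differed by 0.33 in whole lysates (SE 0.16, unadjusted p = 0.0475, adjusted p = 0.21). Of all genes 8.15% were called in Heavy and 12.7% in Total. Cortical neuron markers, all 5 of them, were lower in the Acb in both kinds of RNA, and all 6 microglia markers were higher, and their part in these values was not tested. In tissue of many cell types, fewer cells of a type and less RNA per cell cannot be told apart.

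The rest of the pathway was read from a list of 29 genes for supply of precursors, antizymes, breakdown, transport, hypusine formation and methylthioadenosine salvage, of which 25 were tested in the Acb and 27 in the DS. In heavy polysomal fractions against whole lysates of wild-type mice, 4 rose and 1 fell of 25 in the Acb, and 4 rose and 3 fell of 27 in the DS, shares close to the 23.1% and 24.8% of all genes called in either direction. The median log2 fold change of the list was 0.17 and 0.28, against 0.04 and 0 over all genes. In KI mice 5 rose and 1 fell in the Acb and 6 rose and 1 fell in the DS, where 19.2% and 25.5% of all genes were called. These counts are no result about the list.

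The same 4 genes rose in both regions of wild-type mice. Dhps, deoxyhypusine synthase, which transfers part of spermidine to eIF5A, was at 16.6, 30.4 and 24.4 CPM in whole lysates and 42.4, 34.1 and 39.1 CPM in Heavy of the Acb, a log2 fold change of 0.65 (SE 0.23, adjusted p = 0.0322), and it had 1.0 (SE 0.23, adjusted p = 0.000568) in the DS. Eif5a, which encodes the protein so modified, rose by 0.68 (SE 0.15, adjusted p = 0.000505) and 0.82 (SE 0.14, adjusted p = 1.04e-05). Adi1, a dioxygenase of methionine salvage, rose by 0.59 (SE 0.19, adjusted p = 0.0176) and 0.92 (SE 0.20, adjusted p = 0.000255), and Mat2b, the regulatory subunit of methionine adenosyltransferase, by 0.56 (SE 0.15, adjusted p = 0.00496) and 0.37 (SE 0.14, adjusted p = 0.048).

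Mat2a, the catalytic subunit of the same enzyme, moved the other way. It was at 203, 195 and 192 CPM in whole lysates of the Acb and at 116, 129.5 and 103 CPM in heavy polysomal fractions, with no overlap. Its log2 fold change was -0.81 (SE 0.15, adjusted p = 6.95e-05) in the Acb and -0.83 (SE 0.14, adjusted p = 5.15e-06) in the DS of wild-type mice, and -0.42 (SE 0.15, adjusted p = 0.0383) and -0.82 (SE 0.14, adjusted p = 7.46e-06) in KI mice. No gene of the list was called between genotypes by edgeR. An unadjusted p under 0.05 was reached by 5 of 25 in Heavy and 0 of 25 in Total of the Acb, and by 1 of 27 in Heavy and 6 of 25 in Total of the DS, against 21.7%, 2.96%, 6.42% and 9.07% of all genes. Between regions of wild-type mice, Mat2b was lower in the Acb in heavy polysomal fractions (-0.52, adjusted p = 0.034) and whole lysates (-0.74, adjusted p = 2.85e-05). In heavy polysomal fractions Slc18b1 (0.81, adjusted p = 0.0443), Slc7a1 (0.70, adjusted p = 0.0466) and Atp13a3 (0.60, adjusted p = 0.0474), which encode transporters, were higher in the Acb. In whole lysates Atp13a2, a lysosomal polyamine exporter, was higher (0.52, adjusted p = 0.0468) and Dohh, the enzyme that completes hypusine, lower (-0.71, adjusted p = 0.00484).

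**Figure D5:**
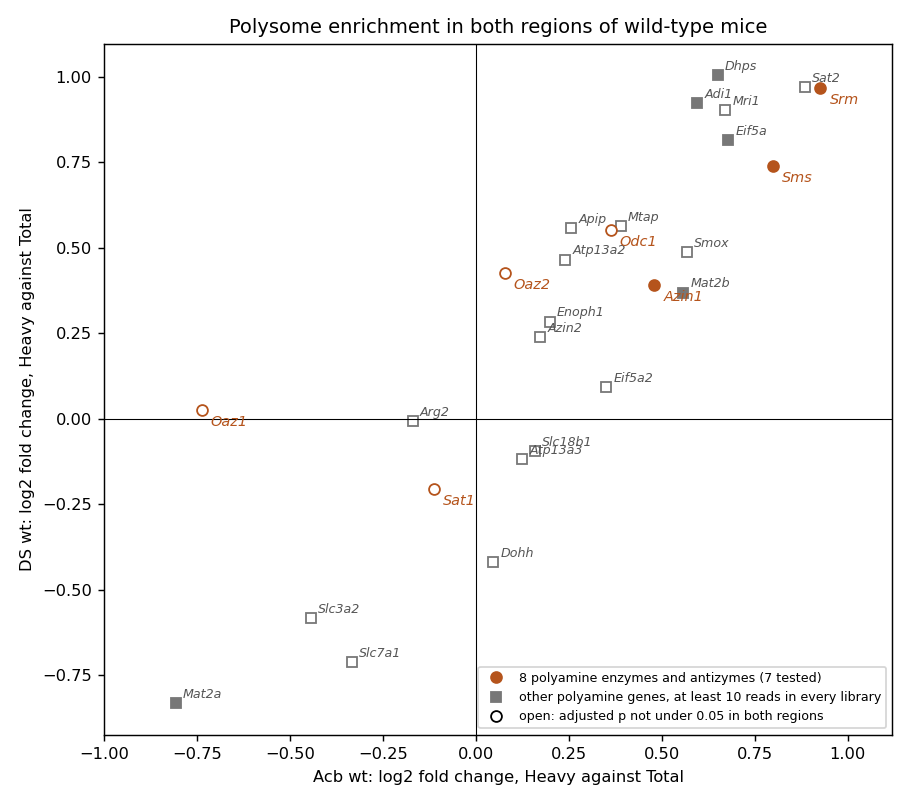
Log2 fold change of Heavy against Total in wt mice, Acb on the horizontal and DS on the vertical axis, for the members (orange) and for the other polyamine genes with at least 10 reads in every library (grey squares, Azin2 counted under its older symbol Adc). Filled symbols passed in both regions: Srm, Sms, Azin1, Dhps, Eif5a, Adi1 and Mat2b upward and Mat2a downward.

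The members shared little of their transcript structure. Upstream ATG triplets, which occur in the 5′ untranslated region of 54.1% of coding genes that have one, numbered 2 in Odc1, 1 in Amd1, 4 in Sms, 3 in Azin1, 2 in Sat1 and 0 in Srm, Oaz1 and Oaz2. Among the members enriched in wild-type mice of both regions were thus Srm without any and Sms and Azin1 with 4 and 3. Transcripts ran from 1044 bases (Oaz1) to 4871 bases (Azin1).

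Across the 24 libraries the levels of Srm and Azin1 (Pearson r = 0.80 of log2 CPM), Odc1 and Sms (r = 0.76) and Srm and Sms (r = 0.74) ran most closely together among the members, while Sat1 had r = -0.21 with Odc1 and r = 0.62 with Oaz2. These libraries share their kind of RNA, region and genotype, and the values are descriptions. Among 11979 genes with at least 50 reads on average, those most like Sms were Chmp5 (r = 0.97), Yipf4 (r = 0.96) and Ube2l3 (r = 0.96), and those most like Sat1 were Snapc5 (r = 0.94), Mrpl18 (r = 0.93) and Ndufa1 (r = 0.92). Oaz2 was closest to Fam162a (r = 0.93), Tceb2 (r = 0.93) and Lsm4 (r = 0.92), and Azin1 to Pcmtd1 (r = 0.93), Ulk2 (r = 0.92) and Abi2 (r = 0.92). Odc1 was closest to Hpcal1 (r = 0.91), Anp32b (r = 0.91) and Rpf1 (r = 0.90), Srm to Crip2 (r = 0.92), Anapc5 (r = 0.91) and Arpc3 (r = 0.90), and Oaz1, at its low counts, to H2afv (r = 0.77), Dnajc30 (r = 0.77) and Mrps26 (r = 0.75).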

How the data were processed

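The 24 libraries (polyA-selected, stranded, single-end) held RNA of heavy polysomes or of whole lysates. The authors aligned reads to mm10 with TopHat2 2.0.13 and Bowtie2 2.2.3, dropped those above 3 mismatches, assigned the rest to genes with HTSeq 0.6.1p1 on the opposite strand, and deposited raw counts of 24079 genes, with no normalization. Reads that align to several places are left out by HTSeq's default.

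A gene entered a fit if its libraries held at least 15 reads together, the minimum the study used. Comparisons used edgeR 4.0.16 (TMM, quasi-likelihood F test in its legacy form, R 4.3.3), and a gene was called at an adjusted p under 0.05. Intervals are the log2 fold change and its SE times the normal quantile. They are somewhat narrower than the F test itself implies with so few libraries. Heavy was compared with Total, and the genotype effect on that ratio tested, over the 12 libraries of a region. Genotypes within a fraction, and regions in wild-type mice, were compared over 6 libraries. CPM were scaled by TMM over all 24 libraries. DESeq2 1.42.0 was an alternative. The edgeR and DESeq2 fits and the removal of the length trend were tested on simulated counts for some of the comparisons. The other steps were not tested in this way. Transcripts and positions came from GENCODE M21 on GRCm38.p6, the build of mm10, and 21209 genes had a length.

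By the methods an input was kept from each sample loaded on a gradient. That Heavy and Total libraries of the same number share lysates was taken from the numbers in the labels and is not stated. These libraries were paired in a fit with a replicate block. Correlations of their residuals ranged from -0.058 to 0.081, with 0 of 12 above 0.1. No 2 libraries of a group were identical, and all 24 pairs differed by more than sampling noise (chi-square per degree of freedom 15.7 to 87.1). With 9280589 to 34703044 reads per library, precision was limited by the spread between libraries of a group, except for Oaz1. P-values set a difference against that spread. Whether the spread came from the mice of a pool, the gradient or the library preparation was not tested.

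The members, the lists and the rules were chosen with earlier results of these data known. All members are named, with list genes that passed in the same direction in both wild-type regions or in a genotype or region comparison, and the 3 genes most correlated with each member.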

Additional observations from a re-analysis of the deposited data

Results flagged for a closer look

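Sat1 went in opposite directions between genotypes in heavy polysomal fractions: every KI library lay below every wild-type library in the Acb and above every one in the DS, as for 0.906% of all genes tested in both regions. The difference between the regions was -1.62 on the log2 scale (edgeR adjusted p = 0.0518).

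The same gene went in opposite directions from whole lysate to heavy polysomes in KI mice. Every Heavy library was lower in the Acb and higher in the DS, as for 1.1% of all genes. The regions differed by -1.49 (edgeR adjusted p = 0.000701), a comparison added after these values had been seen. Its difference from wild-type mice was -1.66 (adjusted p = 0.115). With the length trend removed the rise in the DS was 0.15 (adjusted p = 0.688).

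For Oaz2 the ratio of Heavy to Total in KI mice differed between regions by -0.71 (edgeR adjusted p = 0.0374), while its libraries overlapped in the Acb. This comparison too was added after the data had been seen, and its call was kept in 11 of 21 alternatives. In wild-type mice the regional difference was -0.38, and the genotypes differed in it by -0.43 (adjusted p = 0.738).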

How the results depend on the processing

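Of 2009 alternative values of single members, 1828 kept their direction and their side of the threshold, 42 passed where the main value had not, 40 no longer passed and 99 changed sign with neither value past the threshold. No called value changed sign.

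Members called in KI mice of the Acb (Heavy against Total) numbered 2, but 1 with DESeq2's size factors, 4 with library totals and 1 to 3 without a library. In KI mice of the DS they numbered 5, but 2 with the length trend removed, 7 with library totals and 4 to 6 without a library. In wild-type mice they were 3 in the Acb, up to 4 under other settings and 2 to 3 without a library, and 5 in the DS, down to 4 under other settings and 2 to 5 without a library. Against 0 in the main fit, 1 member was called between genotypes in Heavy of the Acb without a filter, by DESeq2 and with 24 libraries in one fit, in Heavy of the DS without a filter, and between wild-type regions in Heavy with the length trend removed. Without a library, 0 to 1 was called in Total between wild-type regions.

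For the region effect on the genotype difference in Heavy, 1 member (Sat1) was called with upper quartile factors, library totals, no filter, the length trend removed, DESeq2 and 24 libraries, and 0 to 1 without a library. For the region effect in KI mice, 1 was called with library totals, 3 without a filter and 1 to 2 without a library, against 2. For the region effect on translational efficiency, 1 was called without a filter and 0 to 1 without a library.

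With the replicate block, 1 member was called between wild-type regions in Heavy (Srm, -0.44, adjusted p = 0.0487), 1 in the region effect on the genotype difference in Heavy and 1 in that on translational efficiency (both Sat1), and 6 in KI mice of the DS. It changed no other call. In comparisons without Heavy and Total together, libraries shared a number only, with residual correlations of -0.267 to 0.29.

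Over all genes DESeq2 called 1090 against 0 by edgeR between genotypes in Heavy of the Acb, 17 against 7 in Heavy of the DS and 95 against 19 in Total of the DS. For the region effects it called 1 against 0 in wild-type mice, 236 against 1 on the genotype difference in Heavy and 3 against 0 on translational efficiency. The cause of these differences was not tested. Few reads limit Oaz1, and Amd1 could not be tested.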
